A study of Mus musculus with 8 samples.

Results

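The genes described here are 37 genes of glycolysis, of pyruvate use and of the response to hypoxia, out of 22662 genes and unnamed array features tested. They were taken by name, and array probes were assigned to them through the RefSeq accession that the array annotation gives each probe. Of the 37 genes, 29 encode glycolytic enzymes, regulators of glycolysis or enzymes of pyruvate and lactate conversion, and 8 belong to the hypoxia response. All 37 passed the filter on dim probes, and each was detected above background on all 8 arrays. The arrays carried 56 probes for them, of which 55 passed.

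Expression had been measured on 8 two-colour Agilent whole-genome oligonucleotide arrays in nephron progenitors from mouse kidneys at embryonic day 15.5 (C57BL/6 strain). The mutant group consisted of 4 pools from kidneys with floxed alleles of both Hdac1 and Hdac2, and the wildtype group of 4 pools from kidneys with unfloxed alleles. Both groups carried a Six2-Cre EGFP transgene, which drives the recombinase in progenitors of the cap mesenchyme, and the cells of both were sorted for EGFP. The sources used here do not give the number of embryos in a pool. Cy5 held the RNA of the pool, labelled from 0.5 µg, and the Cy3 channel of all 8 arrays was a common reference, the RNA of wildtype pool 1. A log2 ratio is therefore meant to state the level relative to wildtype pool 1, whose own array compared this RNA with itself. That array did not read 0 for every gene, with Hk1 at 0.25, Tpi1 at -0.26 and the progenitor marker Eya1 at 0.46. A ratio thus also holds deviations that are not differences in RNA, and their source was not tested.

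Glycolysis splits glucose into pyruvate in the cytoplasm and yields ATP without oxygen. Pyruvate is then either reduced to lactate by lactate dehydrogenase or oxidised in mitochondria through the pyruvate dehydrogenase complex, which pyruvate dehydrogenase kinases switch off by phosphorylation. Hypoxia-inducible factor (HIF) raises transcription of many glycolytic genes when oxygen is low, and prolyl hydroxylases of the Egln family mark its alpha subunit for degradation when oxygen is present. Nephron progenitors are the self-renewing cells from which the nephrons arise, and glycolysis has been linked to their self-renewal.

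ACGTG is among the core sequences that HIF binds. The 250 bases before the start of each gene in the RefSeq promoter set (assembly GRCm38.p6) were searched for these letters on both strands. The other strand reads CACGT, and other forms of the core were not searched for. The palindrome CACGTG, the E-box read by Myc and Usf factors, counts as a match on both strands. All 37 genes had at least 1 window. The letters were present in 22 of their 57 windows (38.6%), against 3056 of 15055 windows of the genes tested (20.3%) and 5444 of all 32851 windows (16.6%). At least 1 window held a match for 18 of the 37 genes (48.6%), against 23.7% of the genes tested that had a window. The 37 genes had more windows per gene (57 for 37, against 15055 for 11859), which by itself raises such a share. A match is a description of these letters and does not show binding. The following 4 windows are shown because they belong to Hk2 and Ankrd37, which are among the 3 genes whose mutant and wildtype samples did not overlap, and to a pair of the enzymes that were lowest in mutant pool 1 (Pgk1 and Ldha). Vegfa, the other gene without overlap, held a match in 1 of its 2 windows, which is not shown. Where a gene had several windows, a window with the most matches was taken. Each window shown is written 5′ to 3′ on the strand of its gene, with the matched letters in capitals. The Hk2 window lies on the minus strand at chr6:82774455-82774704, the Ankrd37 window on the minus strand at chr8:45999851-46000100, the Pgk1 window on the plus strand at chrX:106186850-106187099 and the Ldha window on the plus strand at chr7:46845554-46845803.
Hk2: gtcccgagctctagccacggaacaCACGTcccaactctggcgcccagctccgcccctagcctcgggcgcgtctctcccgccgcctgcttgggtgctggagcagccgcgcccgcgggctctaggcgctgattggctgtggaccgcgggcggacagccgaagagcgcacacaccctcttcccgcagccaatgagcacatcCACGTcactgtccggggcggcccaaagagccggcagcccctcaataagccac
Ankrd37: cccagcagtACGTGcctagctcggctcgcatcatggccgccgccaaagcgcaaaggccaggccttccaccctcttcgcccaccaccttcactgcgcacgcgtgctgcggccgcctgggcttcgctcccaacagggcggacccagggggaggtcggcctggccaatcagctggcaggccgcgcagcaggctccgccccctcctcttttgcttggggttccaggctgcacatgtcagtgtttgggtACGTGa
Pgk1: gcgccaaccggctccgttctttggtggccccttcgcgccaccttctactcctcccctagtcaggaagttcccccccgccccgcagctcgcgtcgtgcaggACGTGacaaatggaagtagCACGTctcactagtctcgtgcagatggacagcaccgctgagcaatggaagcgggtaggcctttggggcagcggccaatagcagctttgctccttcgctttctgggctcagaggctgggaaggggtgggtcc
Ldha: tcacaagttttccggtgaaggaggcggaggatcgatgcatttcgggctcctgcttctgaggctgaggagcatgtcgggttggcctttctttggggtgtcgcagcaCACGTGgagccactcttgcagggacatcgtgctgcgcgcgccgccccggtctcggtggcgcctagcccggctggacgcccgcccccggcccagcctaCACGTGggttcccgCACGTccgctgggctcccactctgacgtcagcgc
Counted from the start of the gene, the matches began at -226 and -52 in Hk2, at -241 and -6 in Ankrd37, and at -150 and -131 in Pgk1. The Ldha window held 5 matches, at -145, -144, -48, -47 and -34, the first 4 of which are both strands of a pair of CACGTG palindromes. The 18 genes with a match had a median log2 difference of -0.08 (range -0.47 to 0.38), and the 19 without had a median of -0.02 (range -0.43 to 0.33).

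The arrays differed in quality. On the wildtype 2 array 48625 of 55681 probes counted as detected in Cy5, against 28148 to 33981 on the other 7, and 3.45% of its spots were outliers (0.309 to 0.416% elsewhere). Pools 3 and 4 of a group were close to each other, with a median absolute deviation of Cy5 levels of 0.0901 between the mutant and 0.0842 between the wildtype pools, against at least 0.162 for any other pair of pools. The Cy3 levels, which come from a single RNA, deviated by 0.0682 to 0.117 between arrays other than wildtype 2, and by 0.0706 between the mutant and 0.0702 between the wildtype arrays of these pools. The Cy5 values thus lie within the range of the Cy3 noise but above it on the same arrays. Pools 3 and 4 were averaged and counted as 1 sample, which left 3 mutant and 3 wildtype samples. Counted separately, none of the 37 genes was called either (smallest adjusted p = 0.136). The mutant 1 array also stood apart. Over 3916 genes with several probes, the median SD between probes of a gene was 0.245 on that array and 0.0826 to 0.142 on the others, and for the 10 such genes described here it was 0.29, against 0.0499 to 0.163. For the 37 genes and the pathway genes named, differences that this array moved by more than 0.1 are also given without it. Among check genes, the progenitor factor Six2 had a difference of -0.13 ± 0.14 (SE, adjusted p = 0.839), and Cited1, a marker of uncommitted progenitors, was lower in mutant samples by a log2 difference of -2.72 ± 0.13 (SE, adjusted p = 0.00279). The targeted gene Hdac1 averaged -0.14 in mutant and 0.16 in wildtype samples, a difference of -0.30 ± 0.09 (SE, adjusted p = 0.476), and Hdac2 differed by -0.13 ± 0.14 (SE, adjusted p = 0.84). Whether these probes read the deleted exons was not analysed here.

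None of the 37 genes passed the threshold between mutant and wildtype samples by limma with Benjamini-Hochberg adjustment over all genes (smallest adjusted p = 0.517). The background was 10 of 22662 genes called, or 0.0441%. At an unadjusted p under 0.05 there were 2 of the 37 (5.41%), Hk2 and Eno2, against 7.24% of all genes (4.46% higher and 2.78% lower in mutant samples). Same-numbered pools of the groups deviated together, and with pool number as a block the smallest adjusted p among the 37 was 0.194, with 34 genes called over all (0.15%). In that fit 7 of the 37 genes (18.9%) had an unadjusted p under 0.05, against 12.7% of all genes (7.77% higher and 4.88% lower). These were Hk2, Pfkfb3 and Eno2 with higher and Pgam2, Eno3, Vegfa and Ankrd37 with lower means in mutant samples. All 37 differences were under 0.5 on the log2 scale. The 95% interval of the difference, taken gene by gene with no adjustment, lay within 1 log2 unit of 0 for 35 genes, the exceptions being Pdha1 and Hif1a, and within 0.5 for 21 genes.

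The mean was lower in mutant samples for 25 genes and higher for 12, against 11226 lower and 11436 higher of all 22662. For 19 genes the difference was at most 0.1 in either direction. The median difference was -0.05 over the 37 genes, -0.05 over the 29 glycolysis and pyruvate genes and -0.07 over the 8 hypoxia response genes, against 0.00 over all genes. Pool by pool, the median of the 37 was -0.20 in pool 1, 0.06 in pool 2 and -0.05 in pools 3 and 4, so the sign was not shared by the pools. Samples did not overlap between groups for 3 of the 37 genes (8.11%), Hk2 with higher and Vegfa and Ankrd37 with lower values in mutant samples, against 14.5% of all genes (8.6% higher and 5.86% lower). Since these are bulk samples, fewer cells of a type and less RNA per cell cannot be told apart.

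**Figure D1:**
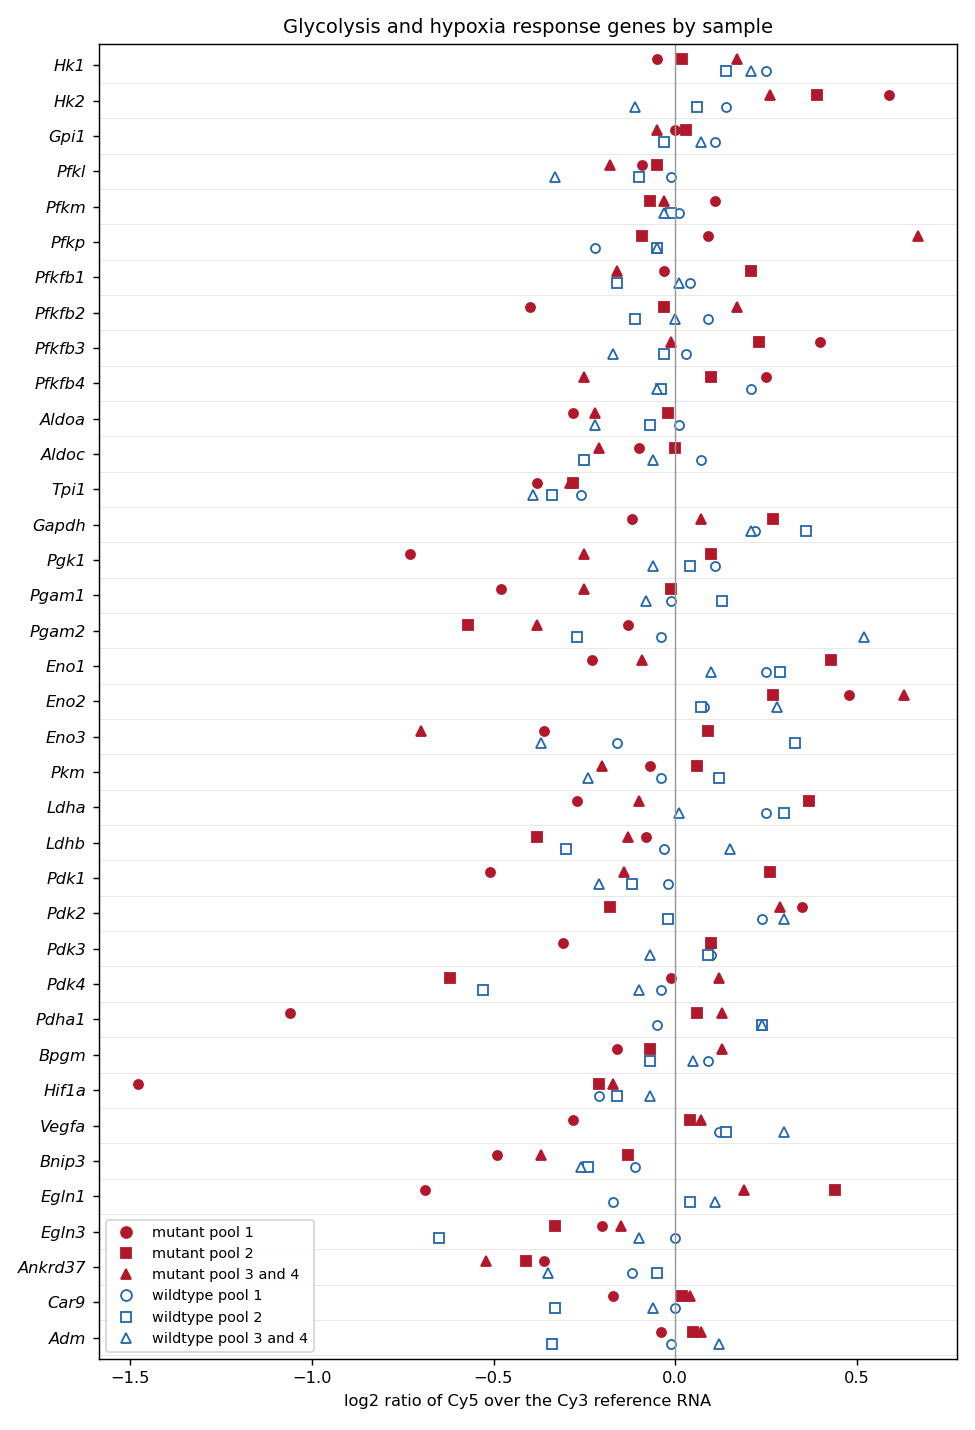
Log2 ratio of Cy5 over the Cy3 reference RNA (x axis) for each of the 37 genes (rows) in 3 mutant samples (filled red) and 3 wildtype samples (open blue), with marker shape for the pool number. The filled circle of mutant pool 1 is the lowest of the 6 values for 16 genes, with Hif1a at -1.48 and Pdha1 at -1.06. It is the highest for 5 genes.

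Hexokinases phosphorylate glucose and commit it to the cell. Hk2, the inducible isozyme bound to mitochondria, had log2 ratios of 0.59, 0.39 and 0.26 in mutant pools 1, 2 and 3 and 4, against 0.14, 0.06 and -0.11 in the wildtype pools of the same numbers. Every mutant sample was above every wildtype sample. The means were 0.41 ± 0.17 in mutant and 0.03 ± 0.12 in wildtype samples (SD, n = 3 each), a difference of 0.38 ± 0.12 (SE, 95% interval 0.09 to 0.67), or 1.31-fold. This difference had an unadjusted p of 0.0167 and an adjusted p of 0.517 by limma, and an exact two-sided permutation p of 0.1, the smallest that 3 against 3 samples can give. By pool number the differences were 0.45, 0.34 and 0.36, and without mutant pool 1 the difference was 0.30. Hk1, the constitutive isozyme, had -0.05, 0.02 and 0.17 in mutant samples, against 0.25, 0.14 and 0.21 in wildtype samples, a difference of -0.15 ± 0.10 (SE, adjusted p = 0.806). Its values overlapped between the groups only through the mutant sample of pools 3 and 4.

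Gpi1, which converts glucose 6-phosphate to fructose 6-phosphate, had 0.00, 0.03 and -0.05 in mutant samples, against 0.11, -0.03 and 0.07 in wildtype samples, a difference of -0.05 ± 0.09 (SE, adjusted p = 0.899). Its 3 probes gave differences between -0.05 and -0.01, a spread smaller than the error.

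Phosphofructokinase carries out the committed step of glycolysis. The differences of its muscle and liver subunits were 0.01 ± 0.09 for Pfkm and 0.04 ± 0.11 for Pfkl (SE). Pfkm had 0.11, -0.07 and -0.03 in mutant samples, against 0.01, -0.01 and -0.03 in wildtype samples. The platelet subunit Pfkp had 0.09, -0.09 and 0.67 in mutant samples, against -0.22, -0.05 and -0.05 in wildtype samples. Only the mutant sample of pools 3 and 4 was clearly high, the groups overlapped, and the difference was 0.33 ± 0.20 (SE, adjusted p = 0.791). A second, dimmer Pfkp probe had 0.54, -0.35 and -0.04 in the mutant samples, so a different sample was high there, and its difference was 0.18.

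The bifunctional enzymes of the Pfkfb family set the level of fructose 2,6-bisphosphate, the activator of phosphofructokinase. Pfkfb3 had 0.40, 0.23 and -0.01 in mutant samples, against 0.03, -0.03 and -0.17 in wildtype samples. The groups overlapped in a single pair of values, and the difference was 0.26 ± 0.13 (SE, adjusted p = 0.754), with an unadjusted p of 0.0304 in the blocked fit. Pair by pair it was 0.36, 0.26 and 0.16, and without mutant pool 1 it was 0.16. A second Pfkfb3 probe, annotated to another transcript, gave -0.01. The other members of the family had differences of 0.05 for Pfkfb1, -0.08 for Pfkfb2 and -0.01 for Pfkfb4. Without mutant pool 1 they were 0.07 for Pfkfb1, 0.07 for Pfkfb2 and -0.12 for Pfkfb4.

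Aldolase and triose phosphate isomerase produce the triose phosphates. Aldoa, the muscle-type aldolase, had -0.28, -0.02 and -0.22 in mutant samples, against 0.01, -0.07 and -0.22 in wildtype samples, a difference of -0.08 ± 0.11 (SE). Aldoc, the brain-type isozyme, differed by -0.02 ± 0.12 (SE). Tpi1 had -0.38, -0.28 and -0.29 in mutant samples, against -0.26, -0.34 and -0.39 in wildtype samples. Its groups were interleaved, and the difference was 0.01 ± 0.09 (SE, 95% interval -0.20 to 0.23). A second, dimmer Tpi1 probe gave -0.29, with -1.32 in mutant pool 1.

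The lower part of the pathway runs from glyceraldehyde 3-phosphate to phosphoenolpyruvate. Gapdh, which oxidises glyceraldehyde 3-phosphate, had -0.12, 0.27 and 0.07 in mutant samples, against 0.22, 0.36 and 0.21 in wildtype samples, a difference of -0.19 ± 0.13 (SE, adjusted p = 0.803) that was -0.10 without mutant pool 1. The mutant pool 2 value lay among the wildtype values. Pgk1, phosphoglycerate kinase and a source of glycolytic ATP, had -0.73, 0.10 and -0.25 in mutant samples, against 0.11, 0.04 and -0.06 in wildtype samples. Mutant pool 1 alone was far below the wildtype samples, and the difference of -0.32 ± 0.20 (SE, adjusted p = 0.801) was -0.10 without it.

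Phosphoglycerate mutases shift the phosphate ahead of enolase. Pgam1, the general isozyme, had -0.48, -0.01 and -0.25 in mutant samples, against -0.01, 0.13 and -0.08 in wildtype samples, a difference of -0.26 ± 0.14 (SE, adjusted p = 0.777) that was -0.14 without mutant pool 1. Pgam2, the muscle isozyme, had -0.13, -0.57 and -0.38 in mutant samples, against -0.04, -0.27 and 0.52 in wildtype samples. The wildtype sample of pools 3 and 4 was the high value, and the difference was -0.43 ± 0.22 (SE, adjusted p = 0.754), with an unadjusted p of 0.0481 in the blocked fit. It was -0.55 without mutant pool 1. Bpgm, which makes the 2,3-bisphosphoglycerate of red cells, differed by -0.05 ± 0.11 (SE).

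The 3 enolases, which form phosphoenolpyruvate, had differences of both signs. Eno2, the enolase typical of neurons, had 0.48, 0.27 and 0.63 in mutant samples, against 0.08, 0.07 and 0.28 in wildtype samples. The groups overlapped only where the wildtype sample of pools 3 and 4 reached 0.28, above mutant pool 2. The means were 0.46 ± 0.18 in mutant and 0.14 ± 0.12 in wildtype samples (SD, n = 3 each), a difference of 0.32 ± 0.13 (SE, 95% interval 0.02 to 0.61), or 1.25-fold, with an unadjusted p of 0.0394 and an adjusted p of 0.663 by limma. The exact two-sided permutation p was 0.2. Eno3, the muscle enolase, had -0.36, 0.09 and -0.70 in mutant samples, against -0.16, 0.33 and -0.37 in wildtype samples. Its values varied more between pool numbers than between groups, and the difference of -0.26 had an SE of 0.25 without and 0.08 with the block, where the unadjusted p was 0.0269 and the adjusted p 0.333. Eno1, the ubiquitous enolase, had -0.23, 0.43 and -0.09 in mutant samples, against 0.25, 0.29 and 0.10 in wildtype samples, a difference of -0.18 ± 0.18 (SE) that was -0.05 without mutant pool 1.

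Eno2 and Eno3 are known from neurons and muscle, so markers of these cells were read beside them. The 6 neuron markers had a median difference of -0.01, with 3 higher and 3 lower, and none was called. The furthest apart were Stmn2, at 0.77 ± 0.10 (SE, adjusted p = 0.11), and Nefl, at -0.83 ± 0.16 (SE, adjusted p = 0.247), and neither overlapped between the groups. Over the 6 markers the mean log2 ratio ranged over -0.07 to 0.15 in mutant and -0.04 to 0.09 in wildtype samples. Beside Eno3 and Pgam2, 4 of 6 skeletal muscle markers were measured, 2 higher and 2 lower. Their median difference was -0.14, with Myog at -0.48 and Tnnt3 at 0.47 furthest apart. Their mean log2 ratio was -0.21 to -0.13 in mutant and -0.23 to 0.02 in wildtype samples. The muscle markers Ckm and Mylpf were not among the genes tested. The part of these cells in the values of Eno2, Eno3 and Pgam2 was not tested.

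Pyruvate kinase closes glycolysis. Pkm had -0.07, 0.06 and -0.20 in mutant samples, against -0.04, 0.12 and -0.24 in wildtype samples, a difference of -0.02 ± 0.13 (SE). Its splice forms were not separated here. Ldha, the lactate dehydrogenase subunit that favours lactate formation, had -0.27, 0.37 and -0.10 in mutant samples, against 0.25, 0.30 and 0.01 in wildtype samples. Mutant pool 2 was the highest and mutant pool 1 the lowest of the 6 samples, and the difference of -0.18 ± 0.18 (SE, adjusted p = 0.832) was -0.05 without mutant pool 1. Ldhb, the subunit that favours the reverse reaction, differed by -0.14 ± 0.15 (SE).

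Pyruvate dehydrogenase and its kinases decide whether pyruvate enters the mitochondrial route. Pdha1, the catalytic alpha subunit of pyruvate dehydrogenase, had -1.06, 0.06 and 0.13 in mutant samples, against -0.05, 0.24 and 0.24 in wildtype samples. Mutant pool 1 was far below all other samples, and the difference of -0.43 ± 0.31 (SE, adjusted p = 0.818, 95% interval -1.16 to 0.30) was -0.05 without it. The kinases that inhibit the complex had differences of -0.02 for Pdk1, -0.02 for Pdk2, -0.07 for Pdk3 and 0.05 for Pdk4. Without mutant pool 1 these were 0.17 for Pdk1, -0.12 for Pdk2, 0.06 for Pdk3 and -0.03 for Pdk4, so the sign of Pdk1, Pdk3 and Pdk4 turned. Pdk3 had -0.31, 0.10 and 0.10 in mutant samples, against 0.10, 0.09 and -0.07 in wildtype samples. Pdk1, a known HIF target, had -0.51, 0.26 and -0.14 in mutant samples, against -0.02, -0.12 and -0.21 in wildtype samples.

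**Figure D2:**
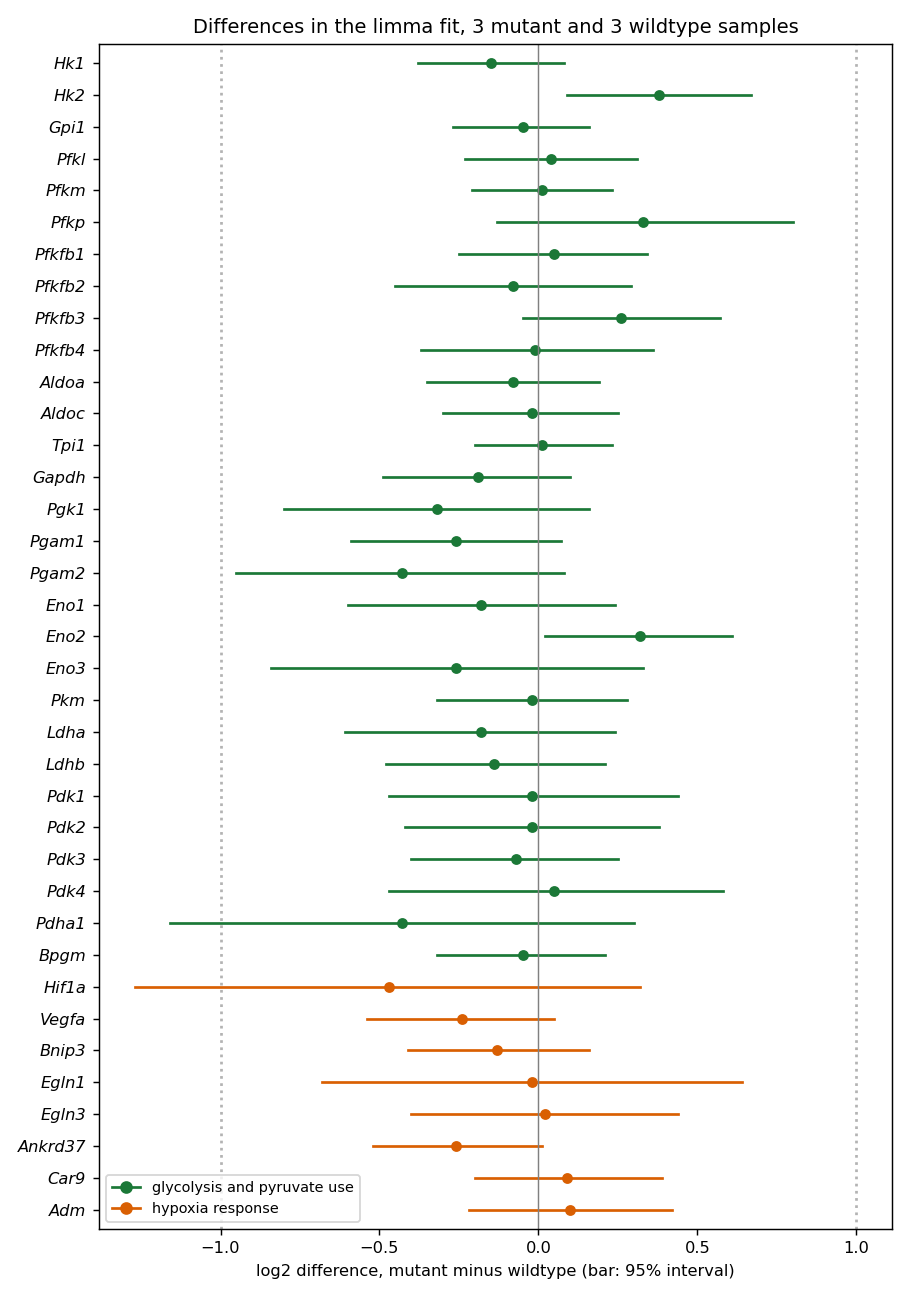
Log2 difference, mutant minus wildtype (x axis), of each of the 37 genes (rows) in the limma fit of 3 mutant and 3 wildtype samples, with bars for the 95% interval taken gene by gene. The bars of Hk2 (0.09 to 0.67) and Eno2 (0.02 to 0.61) leave out 0, and those of Pdha1 and Hif1a reach past the dotted line at a difference of 1 log2 unit below 0.

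Hif1a, the oxygen-regulated alpha subunit of HIF, is controlled mainly at the level of its protein, which these arrays do not measure. Its mRNA had log2 ratios of -1.48, -0.21 and -0.17 in mutant samples, against -0.21, -0.16 and -0.07 in wildtype samples. Mutant pool 1 was far below the other 5 samples, which lay close together. The Cy5 level of the probe was 9.48 on the mutant 1 array, while its Cy3 level there was 10.97. The difference was -0.47 ± 0.34 (SE, 95% interval -1.27 to 0.32, adjusted p = 0.817), and -0.04 without mutant pool 1. A single probe read this gene, so no other probe on that array could be set beside it.

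The prolyl hydroxylases that mark HIF for degradation had differences near 0. Egln1, the main oxygen sensor, had -0.69, 0.44 and 0.19 in mutant samples, against -0.17, 0.04 and 0.11 in wildtype samples. Its mutant samples included the lowest and the highest value, and the difference of -0.02 ± 0.28 (SE) was 0.32 without mutant pool 1, a value that this 1 pool decided. Egln3, which is itself induced by HIF, differed by 0.02 ± 0.18 (SE), and its second probe by 0.04.

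Among HIF target genes, Vegfa, the endothelial growth factor, had -0.28, 0.04 and 0.07 in mutant samples, against 0.12, 0.14 and 0.30 in wildtype samples. Every mutant sample was below every wildtype sample. The difference was -0.24 ± 0.13 (SE, unadjusted p = 0.0925, adjusted p = 0.761), so the mutant level was 84.4% of wildtype, with an exact two-sided permutation p of 0.1. It was -0.13 without mutant pool 1, and a second Vegfa probe, annotated to another transcript, gave -0.07 with overlapping groups. Ankrd37, an ankyrin repeat gene known as a HIF target, had -0.36, -0.41 and -0.52 in mutant samples, against -0.12, -0.05 and -0.35 in wildtype samples. All mutant samples were again below all wildtype samples, the closest pair being -0.36 and -0.35. The difference was -0.26 ± 0.11 (SE, 95% interval -0.52 to 0.01, unadjusted p = 0.057, adjusted p = 0.714), or 83.7% of wildtype, with an exact two-sided permutation p of 0.1, and it was -0.29 without mutant pool 1.

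The groups overlapped for the other HIF targets. Bnip3, a mitophagy receptor, had -0.49, -0.13 and -0.37 in mutant samples, against -0.11, -0.24 and -0.26 in wildtype samples, a difference of -0.13 ± 0.12 (SE) that was -0.05 without mutant pool 1, and its 3 probes gave -0.13 to -0.06. Car9, a membrane carbonic anhydrase, differed by 0.09 ± 0.12 and the vasodilator peptide gene Adm by 0.10 ± 0.14 (SE). Both of these dim probes (Cy5 levels 7.89 and 8.22) had their lowest log2 ratio in wildtype pool 2, at -0.33 for Car9 and -0.34 for Adm. On that array Cy5 was 8.10 for Car9 and 8.28 for Adm, so it was not the lowest. The Cy3 reference was high there, at 8.43 for Car9 (7.76 to 8.04 elsewhere) and 8.62 for Adm (8.07 to 8.22 elsewhere).

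Pool 1 gave the lowest of the pool medians above. Mutant pool 1 was the lowest of the 6 samples for 16 of the 37 genes (43.2%), against 31.3% of 22328 genes with a value in every sample. It was the highest for 5 of the 37 genes, against 30.6% of the 22328. For the 9 bright enzymes of the main route (Gpi1, Aldoa, Tpi1, Gapdh, Pgk1, Pgam1, Eno1, Pkm and Ldha), whose probes all had a Cy5 level above 15, the mutant value was below the wildtype value for 9 in pool 1, 3 in pool 2 and 6 in pools 3 and 4. Across the 37 genes, all 3 pairs were higher in mutant for 3 (8.11%), Hk2, Pfkfb3 and Eno2, against 22.6% of all genes. All 3 pairs were lower in mutant for 10 (27%), against 17.1% of all genes, namely Hk1, Gapdh, Pgam1, Pgam2, Eno3, Ldhb, Pdha1, Hif1a, Vegfa and Ankrd37.

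Probes of a single gene disagreed on the mutant 1 array. The 7 Gapdh probes gave log2 ratios between -2.08 and -0.10 there, against -0.17 to 0.55 over all other samples, and their differences between the groups ran from -0.74 to -0.08. The 3 Ldha probes spanned 1.38 log2 units on the mutant 1 array and at most 0.35 in any other sample. The 2 Tpi1 probes read -0.38 and -1.32 there, and the 2 Hk1 probes read -0.05 and -0.82. For Gapdh, Tpi1 and Hk1 the dimmest probe was the lowest on that array, and for Ldha the lowest was the probe of middle brightness. By probe, the differences between the groups ran from -0.49 to -0.09 for Ldha, -0.29 to 0.01 for Tpi1 and -0.30 to -0.15 for Hk1. The 3 Gpi1 probes stayed within 0.02 of each other on the mutant 1 array. Probes of Egln3, Pfkfb3, Pfkp and Vegfa spread over 0.19, 0.14, 0.45 and 0.36 there. Their largest spreads in another sample were 0.27, 0.52, 0.71 and 0.50, so the disagreement was not shared by all genes. The second probes of Pfkfb3 and Pfkp were dim, with Cy5 levels of 6.77 and 6.93. The 3 Bnip3 probes spread over 0.51 on the mutant 1 array and at most 0.40 in any other sample. Gapdh also has many processed pseudogenes, and which copies a probe reads was not analysed here.

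**Figure D3:**
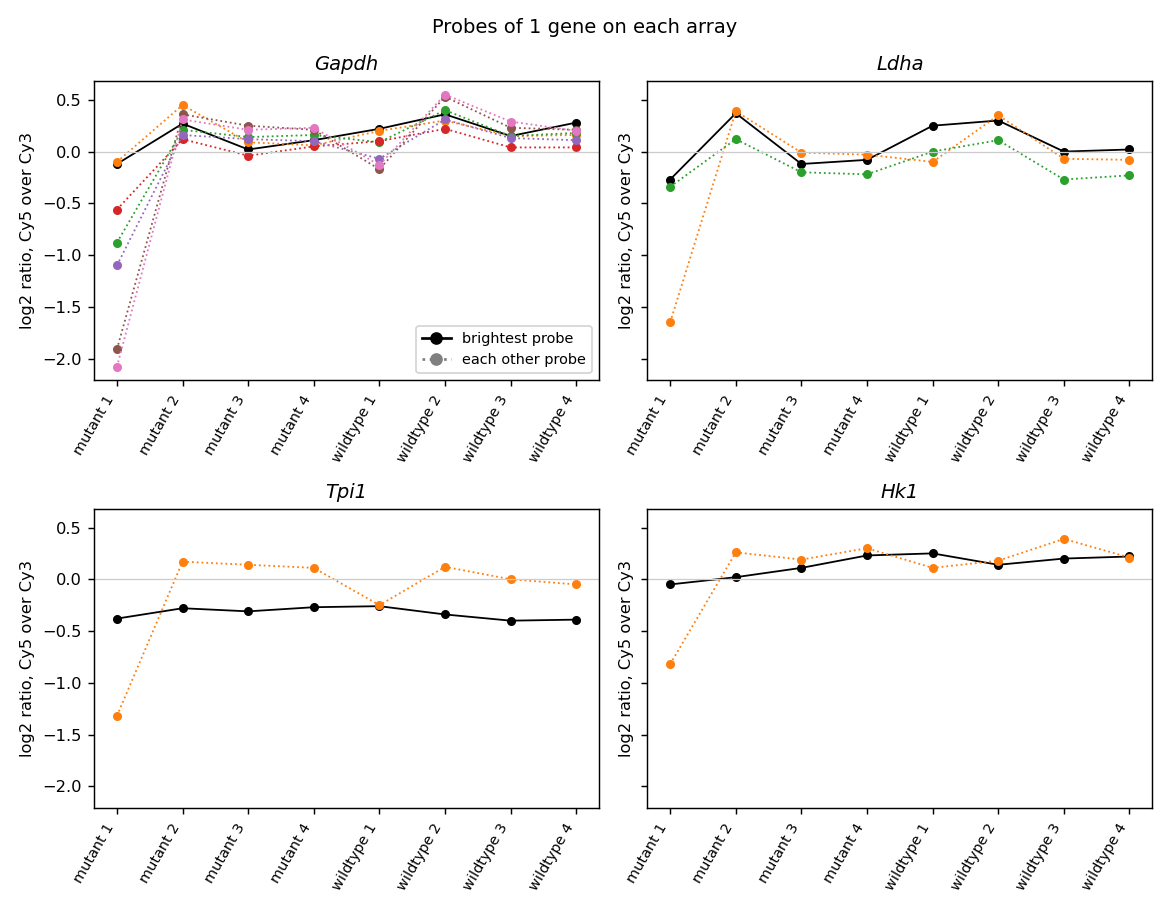
Log2 ratio of Cy5 over Cy3 (y axis) of every kept probe of Gapdh, Ldha, Tpi1 and Hk1 on the 8 arrays (x axis), with the brightest probe of each gene in black and each other probe dotted. On the mutant 1 array the 7 Gapdh probes spread over 1.98 log2 units, while in no other sample did they spread over more than 0.39.

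The neighbouring pathways were described from gene lists. Of 14 glucose and lactate transporters and tissue-restricted isozymes, 11 were measured, 8 with a higher and 3 with a lower mean in mutant samples (median 0.12), and none was called without the block. Adpgk, a kinase of glucose that uses ADP, differed by 0.24 ± 0.18 (SE) and by 0.04 without mutant pool 1. The glucose transporter Slc2a1 differed by 0.12 ± 0.11 and the lactate exporter Slc16a3 by 0.16 ± 0.23 (SE).

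Gluconeogenesis runs in the proximal tubule, so markers of that segment were read beside its genes. All 8 markers were measured, 7 of them lower in mutant samples (median -1.10), and their mean log2 ratio was -1.95 to -0.44 in mutant and -1.28 to 0.72 in wildtype samples, with pool 2 lowest in both groups. The scaffold gene Pdzk1 alone among them was called with the block. Their part in the values of the gluconeogenesis genes was not tested. Of 8 gluconeogenesis genes, 7 were measured, 3 higher and 4 lower, with a median of -0.57, and none was called with or without the block. Pck1, the rate-limiting carboxykinase, had -1.49, -1.74 and -0.50 in mutant samples, against -0.15 and 0.77 in wildtype pool 1 and pools 3 and 4. Its wildtype pool 2 value was missing and was dropped from the fit, which gave -1.55 ± 0.43 (SE, adjusted p = 0.473), or -1.43 without mutant pool 1. Fbp1, fructose bisphosphatase, differed by -1.08 ± 0.73, and the brightest probes of the list, those of G6pc3 and Pcx, by 0.06 ± 0.15 and 0.23 ± 0.10 (SE). Without mutant pool 1 the difference of G6pc3 was -0.10. Slc37a4, the glucose 6-phosphate transporter, differed by -0.67 ± 0.13 (SE, adjusted p = 0.274), and its groups did not overlap.

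The mitochondrial lists had medians near 0. Of 9 genes of the pyruvate dehydrogenase complex and the pyruvate carrier, 8 were measured, 3 higher and 5 lower (median -0.01). Pdp1, the phosphatase that reactivates the complex, had 0.37, 0.63 and 0.65 in mutant samples, against 0.22, 0.14 and 0.15 in wildtype samples, with no overlap and a difference of 0.38 ± 0.11 (SE, adjusted p = 0.471). Dld, a subunit of that complex, differed by -0.37 ± 0.34 (SE), with mutant pool 1 at -1.16, and by 0.06 without that pool. The brightest probes were those of Mpc2, at -0.23 ± 0.16, and Pdhb, at 0.00 ± 0.12 (SE), whose wildtype pool 1 value was missing and was dropped from the fit. All 16 genes of the tricarboxylic acid cycle were measured, 6 higher and 10 lower (median -0.05, smallest adjusted p = 0.785). The furthest from 0 were Suclg2 at -0.53 ± 0.33 and Idh3b at -0.44 ± 0.36, which were -0.11 and 0.02 without mutant pool 1, and the brightest probes were those of Mdh2 at 0.08 ± 0.09 and Sdhb at 0.05 ± 0.09 (SE). All 7 genes of the pentose phosphate pathway were measured, 3 higher and 4 lower (median -0.01), among them Pgls at -0.24 ± 0.15 (-0.08 without mutant pool 1), Tkt at -0.01 ± 0.10 and Taldo1 at 0.17 ± 0.09 (SE).

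Regulators of HIF and further hypoxia targets had medians near 0. All 11 HIF subunits and regulators were measured, 5 higher and 6 lower (median -0.04), with Arnt2 at -0.36 ± 0.35 and Hif3a at 0.33 ± 0.28 (SE) furthest from 0, which were 0.07 and 0.09 without mutant pool 1. The brightest probes there were those of Rbx1 at -0.06 ± 0.09 and Egln2 at 0.06 ± 0.13 (SE), the second of which was -0.07 without mutant pool 1. Of 32 other hypoxia response genes, 29 were measured, 15 higher and 14 lower (median 0.03, smallest adjusted p = 0.505). Gbe1, the glycogen branching enzyme, had -0.46, -0.07 and -0.24 in mutant samples, against 0.13, 0.07 and 0.20 in wildtype samples, with no overlap and a difference of -0.39 ± 0.12 (SE), which was -0.29 without mutant pool 1. Tfrc, the iron uptake receptor, differed by -0.38 ± 0.38 and by 0.09 without mutant pool 1, and the brightest probes, those of Higd1a and Bnip3l, by 0.31 ± 0.13 and -0.07 ± 0.12 (SE). The difference of Higd1a was 0.19 without mutant pool 1, and its groups did not overlap either. Over the 29 genes, groups did not overlap for 3 with higher and 1 with lower values in mutant samples. Of all genes, 8.6% did not overlap with higher and 5.86% with lower values.

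**Figure D4:**
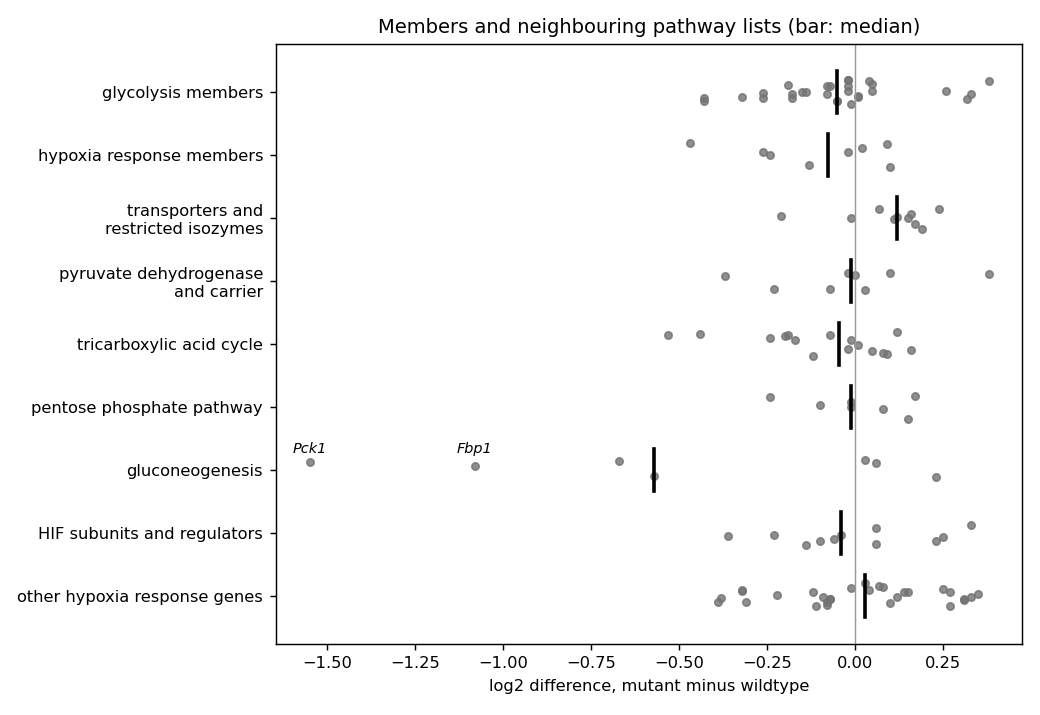
Log2 difference, mutant minus wildtype (x axis), of each gene of the glycolysis and hypoxia response sets and of 7 neighbouring pathway lists (rows), with 1 point per gene and a bar at the median; 1 gene of the transporter list is not drawn. The medians of 8 of the rows lie between -0.07 and 0.12, the gluconeogenesis list is at -0.57, and the labelled genes are those more than 1 log2 unit from 0.

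Markers of the sorted cells and of other cells of the kidney were read in the same way. All 8 interstitial stroma markers had a higher mean in mutant samples (median 0.29, none called), and their mean log2 ratio was 0.11 to 0.47 in mutant and -0.09 to 0.09 in wildtype samples. The 11 nephron progenitor markers had a median of -0.29, with a mean log2 ratio of -0.45 to -0.19 in mutant and 0.06 to 0.17 in wildtype samples. This list holds Cited1, and without it the mean log2 ratio of the other 10 was -0.20 to 0.07 in mutant and 0.06 to 0.21 in wildtype samples, which overlap. Of these 10, 8 had a lower and 2 a higher mean in mutant samples, the 2 being Eya1 and Gdnf (median -0.23). The 8 ureteric bud markers had a median of 0.26, with 6 higher and 2 lower in mutant samples and none called. Their mean log2 ratio was -0.13 to 0.24 in mutant and -0.29 to -0.09 in wildtype samples. The 8 endothelial markers had a median of 0.19, with 5 higher and 3 lower and none called. Their mean log2 ratio was -0.03 to 0.21 in mutant and -0.25 to 0.07 in wildtype samples. The median was 0.04 for 8 of 9 erythroid markers and 0.01 for 5 of 6 macrophage markers. The part of these cells in the values of Hk2, Vegfa and Ankrd37 was not tested.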

How the data were processed

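Scanner files of 8 arrays and a table of values were used. The authors' scanner output (Agilent Feature Extraction 10.7.3.1, per the submitters' processing notes) gives linear intensity per spot and dye, per the file headers. A deposited value table holds log10 ratios of Cy5 over Cy3, and its columns matched the scanner files' log ratios (largest difference 0.00498), which settled scale and direction, with column medians of 0 on 7 arrays and 0.00483 on wildtype 2. Median spot signals, used in place of the mean signals the design named, were background-corrected (normexp, offset 50) and loess-normalized within arrays with limma 3.58.1 in R 4.3.3. Probes were named by accession through the RefSeq gene table of GRCm38.p6 (27509 of 55681 named). Probes needed the scanner's flag for signal above background in Cy5 on 3 or more arrays of 1 group (30364 kept), and the brightest Cy5 probe stood for a gene. Pools 3 and 4 of each group were averaged.

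Mutant and wildtype samples were compared with lmFit and eBayes on log2 ratios, with Benjamini-Hochberg adjustment over 22662 features and a threshold of 0.05. The labels call the pools biological replicates. The script was tested on simulated data. Deviations from group means correlated between same-numbered pools (r = 0.495, 0.543 and 0.527). The pool number was therefore taken to pair the samples from the data, and the blocked fit is an alternative. Between other pairs r was -0.454 to -0.0777. The deviations of a group sum to 0 for each gene, which pushes these values below 0, so they are no separate support. All arrays shared 1 slide and 1 scan, with mutant arrays in one row and wildtype arrays in the other, so slide row cannot be told apart from genotype, and slide column coincides with pool number. Per-sample values are given for members with an unadjusted p under 0.05 in either fit, those whose groups do not overlap and the brightest probe of each step, and for other members where a pool stood apart. From each list, genes called in either fit, the 2 furthest from 0 and the 2 brightest were to be named, and Slc37a4 and Pdzk1 were chosen after their values were seen. A result for 1 gene of the lists is not reported here. The members and lists were chosen with earlier results of these data known. The number of arrays limits the precision. Alternatives covered normalization, filter, probe choice, the Cy5 channel alone, moderation and leaving out each sample.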

Additional observations from a re-analysis of the deposited data

Results flagged for a closer look

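In groups of 4 arrays, 2 of 74 gene and group combinations held an array apart from the other 3, where chance alone gives about 5% of such groups if the arrays are independent. Pools 3 and 4 are close to each other and were elsewhere counted as 1 sample, which narrows the spread of the other arrays and makes an array stand apart more readily. Hif1a had a log2 ratio of -1.48 on the mutant 1 array, against -0.21 to -0.14 on the other mutant arrays. The gene was read by 1 probe, and probes of other genes disagreed most on the same array. Pdk4, a kinase that inhibits pyruvate dehydrogenase, had -0.53 on the wildtype 2 array, against -0.12 to -0.04 on the other wildtype arrays. The mutant pool of the same number had a Pdk4 value of -0.62, with a Cy5 level of 6.98 and a Cy3 level of 7.60. The causes were not tested.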

How the results depend on the processing

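None of the 37 genes was called by limma under any of 22 alternatives (in the reported fit 2 had an unadjusted p under 0.05), and 17 kept the sign of their difference under all of them. Hk2 ranged from 0.30 to 0.51, Eno2 from 0.23 to 0.78, Vegfa from -0.32 to -0.13 and Ankrd37 from -0.35 to -0.20. The count of genes called over all genes was 10, and it was 34 with the replicate block that pairs pool numbers, 5 with a trended and robust moderation, 257 with pools 3 and 4 counted as separate samples, and 0 with the Cy5 channel alone, where 985 genes had an unadjusted p under 0.05 and the median of all genes moved to 0.13. Leaving out samples gave 0 to 47 genes: 6 without mutant pool 1, 4 without wildtype pool 1, 4 without wildtype pool 2, 3 without mutant pools 3 and 4, and 1 without wildtype pools 3 and 4. With the block, leaving out a pair gave 0 without pair 1 (3171 with an unadjusted p under 0.05), 47 without pair 2 and 0 without pools 3 and 4 (1496). The cause was not tested. The block changed no call among the 37 genes. Scaling between arrays (Aquantile) leaves log ratios as they are by construction. With 3 samples a group, the intervals of Pdha1 and Hif1a reach past 1 log2 unit, so a difference of that size lies within their intervals.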

Other observations

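Over all genes, mutant pool 1 was the lowest of the 6 samples for 31.3% and the highest for 30.6%. Genes of the neighbouring lists were among those where it was the lowest. Suclg2, a subunit of succinyl-CoA ligase, had -1.41, -0.18 and -0.10 in mutant samples, against -0.08, -0.04 and 0.02 in wildtype samples. Idh3b, a subunit of isocitrate dehydrogenase, had -1.24, 0.12 and 0.15 in mutant samples, against -0.02, 0.17 and 0.20 in wildtype samples. The iron uptake receptor Tfrc had -1.23, 0.39 and -0.02 in mutant samples, against 0.02, 0.29 and -0.03 in wildtype samples. In each of these genes the other 5 samples lay more than 1 log2 unit above mutant pool 1. These genes were chosen after their values were seen.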
